A study of Mus musculus with 57 samples.

Results

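The 10 genes described here encode PGC-1 coactivators, Perm1 and transcription factors through which nuclear and mitochondrial genes of energy production are switched on. They were chosen by name and make up 10 of the 25416 gene symbols shared by the acute and the chronic count tables. They are the coactivators Ppargc1a, Ppargc1b and Perm1, the nuclear receptors Esrra, Esrrb, Esrrg and Ppara, the nuclear respiratory factors Nrf1 and Gabpa, and Tfam, which acts inside mitochondria. All 10 had enough counts to be tested in both studies.

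Poly(A) RNA was sequenced from heart tissue of 57 wild-type male C57BL6/J mice, each sample counting as 1 animal and 1 replicate, to ask how doxorubicin (Doxo) alters cardiac transcripts and whether nicotinamide mononucleotide (NMN), a precursor of NAD+, alters that response. In the acute study, mice bought at 9 weeks of age received 1 intraperitoneal injection of Doxo or saline, and hearts were taken on day 5. The acute Ctrl group (14 hearts) received saline, the acute Doxo group (13 hearts) received 20 mg/kg Doxo and saline, and the acute Doxo-NMN group (13 hearts) received the same Doxo and 180 mg/kg/day NMN by injection from 5 days before Doxo. In the chronic study, mice aged 14 to 16 weeks received 5 intraperitoneal injections, and hearts were taken on day 60. The chronic Ctrl group (5 hearts) received PBS and plain drinking water, the chronic Doxo group (6 hearts) received 4 mg/kg Doxo per injection, 20 mg/kg in total, and the chronic Doxo-NMN group (6 hearts) received the same Doxo and 500 mg/kg/day NMN in the drinking water from 5 days before the first injection. No group sequenced received NMN without Doxo. Hearts came only from mice alive at harvest. The paper reports lower survival with acute Doxo than in controls, and higher survival and less weight loss when NMN was added. It reports lower survival with chronic Doxo as well. The groups compared may thus differ in which mice survived, and the part of this in the values was not tested. The 2 studies also differed in mouse supplier and sequencing site, so that regimen, age, route, supplier and site cannot be told apart between them.

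PGC-1α, the product of Ppargc1a, binds no DNA itself. It is recruited by DNA-binding factors such as the estrogen-related receptors, PPARα and the nuclear respiratory factors, and together they raise transcription of genes for oxidative phosphorylation, fatty acid oxidation and mitochondrial DNA upkeep. The heart, which depends on mitochondrial oxidation for contraction, is among the tissues richest in these regulators.

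Sequences before RefSeq start sites are shown so that these regions can be read. Long ones are given for the 3 members with the highest level per length in acute Ctrl hearts, Perm1, Ppargc1a and Esrra. Short stretches are given for the 3 members in which a searched motif was found. All sequences were taken from RefSeq promoter windows on GRCm38.p6 (the build also called mm10), which held 14 windows for 9 members. Ppargc1b had no entry. Capital letters mark a motif match and lower case the rest, each written 5′ to 3′ on the strand of its gene. The stretches are chr5:51567727-51567975 (minus strand) for Ppargc1a, chr19:6921814-6922058 (minus) for Esrra, chr4:156215677-156215867 (plus) for Perm1, chr10:71238073-71238102 (minus) for Tfam, chr15:85735735-85735764 (plus) for Ppara and chr1:187608974-187609003 (plus) for Esrrg.
Ppargc1a: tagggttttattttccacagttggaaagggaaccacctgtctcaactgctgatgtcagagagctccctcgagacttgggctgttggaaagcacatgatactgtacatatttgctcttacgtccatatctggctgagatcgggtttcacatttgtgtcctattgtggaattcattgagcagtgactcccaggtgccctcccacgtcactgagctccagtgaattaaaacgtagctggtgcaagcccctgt
Esrra: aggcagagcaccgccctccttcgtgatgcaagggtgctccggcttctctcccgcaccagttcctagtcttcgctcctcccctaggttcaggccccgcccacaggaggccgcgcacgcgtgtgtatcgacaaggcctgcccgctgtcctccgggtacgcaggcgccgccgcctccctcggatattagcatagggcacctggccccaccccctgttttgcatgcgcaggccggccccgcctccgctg
Perm1: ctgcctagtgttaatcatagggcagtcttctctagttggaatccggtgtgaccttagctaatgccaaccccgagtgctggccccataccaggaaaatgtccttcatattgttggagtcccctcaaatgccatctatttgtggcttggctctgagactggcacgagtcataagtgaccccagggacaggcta
Tfam: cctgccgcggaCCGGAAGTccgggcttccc
Ppara: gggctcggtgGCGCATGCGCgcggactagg
Esrrg: taaaactttgCTATTTATAgtctacgcccg

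The Ppargc1a stretch of 249 bases had 48.2% G and C and 5 CG pairs, and the Perm1 stretch of 191 bases had 50.8% and 3. The Esrra stretch of 245 bases was richer, with 68.6% G and C and 22 CG pairs, against medians of 52.4% and 6 pairs in the 250 bases before the start over 32851 promoters. On both strands of windows from 250 bases before to 50 bases after each start, 5 motifs were searched. The GABP motif CCGGAAGT lay 47 bases before the start of Tfam and occurred in 3.89% of all promoters. The NRF1 motif GCGCATGCG lay 31 bases before the start of Ppara, where it reads as overlapping matches on both strands, and occurred in 1.75% of all promoters. The MEF2 motif CTATTTATA lay 22 bases before a start of Esrrg and occurred in 0.429%. The estrogen-related receptor motif TCAAGGTCA (0.423% of all promoters) and the cyclic AMP response motif TGACGTCA (1.79%) matched none of the 14 member windows. Starts here are those of the RefSeq windows. By the GENCODE bounds given below, the matched stretches of Tfam, Ppara and Esrrg lie inside the gene. These matches are a description of letters in a window and are not evidence of binding.

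By the GENCODE annotation of the same build, Ppargc1a (ENSMUSG00000029167) is a protein-coding gene at chr5:51454250-51567726 on the minus strand with 6592 exonic bases. Esrra (ENSMUSG00000024955) lies at chr19:6910977-6921813, Tfam (ENSMUSG00000003923) at chr10:71225464-71238280, both on the minus strand, and Perm1 (ENSMUSG00000078486) at chr4:156215868-156221307 on the plus strand. On the plus strand also lie Esrrb (chr12:86361117-86521628), Esrrg (chr1:187608791-188214885), Nrf1 (chr6:30047988-30153458), Gabpa (chr16:84834925-84863779) and Ppara (chr15:85734983-85802819). The deposited counts are mapped reads per gene. For Gabpa, 397 exonic bases (6.98% of its exons) overlap Atp5j on the opposite strand, a gene that reached 482 CPM in acute and 719 CPM in chronic hearts, and since the strand setting of the counting is not given in the sources used here, the Gabpa values are uncertain. The overlap of Esrra with Trmt112 covered 73 bases (1.66% of its exons), and Trmt112 did not exceed 24.2 CPM.

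Acute hearts had between 32409622 and 52102850 counts each and chronic hearts between 17769886 and 23862287, so that 3 counts correspond to at most 0.0926 and 0.169 CPM, and the lowest count of any member in a heart was 98. Of counts from 1 to 20, 73.7% were even in the acute and 40.3% in the chronic table. An acute count may therefore not stand for 1 read, and the totals of the studies are not comparable as depths. Levels are CPM, that is counts scaled to library size after TMM normalization, and Benjamini-Hochberg adjusted p-values under 0.05 from edgeR's quasi-likelihood F-test were taken as calls. The 8 cardiomyocyte markers (Myh6, Tnnt2 and others) were present in every group, with summed levels of 58426 to 74644 CPM for acute Ctrl, 30125 to 76436 for acute Doxo and 37957 to 84031 in acute Doxo-NMN hearts, and 62929 to 88276 CPM in chronic hearts. The atrial light chain Myl4 was at or above 100 CPM in 8 of 14 Ctrl, 5 of 13 Doxo and 4 of 13 Doxo-NMN acute hearts and in 0 of 17 chronic hearts, and it ran from 1.31 to 1570 CPM over the acute hearts, so that the tissue samples were not alike in this atrial marker. Summed skeletal muscle markers did not exceed 4.27 CPM in acute hearts but lay between 381 and 2081 CPM in chronic hearts. The 4 brown adipocyte markers were not alike. Ucp1 reached 41.7 CPM in an acute Doxo-NMN heart and had a median of at most 0.0655 CPM in each acute group. Cidea had medians of 24.8 (Ctrl), 38.7 (Doxo) and 32.7 CPM (Doxo-NMN) in acute hearts, where Elovl3 and Adrb3 did not exceed 1.17 CPM. In RNA of bulk heart tissue, fewer cells of a type and less RNA per cell cannot be told apart.

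In acute Ctrl hearts, Perm1 and Ppargc1a had the highest levels per length of the 10 genes. Per kilobase of exon, Perm1 was at 99.5 ± 13.9 CPM (SD, n = 14), Ppargc1a at 58.5 ± 17.5 and Esrra at 37.4 ± 2.65. The other 7 genes followed at a distance, from Ppara at 12.3 ± 1.19 CPM per kilobase through Gabpa (10.1), Tfam (9.26), Esrrg (8.31), Esrrb (5.02) and Ppargc1b (4.56) to Nrf1 at 1.22 ± 0.0997. Within this order, Gabpa and Tfam, Tfam and Esrrg, and Esrrb and Ppargc1b did not differ by more than their SDs. In acute Doxo hearts the order per kilobase changed at the top, with Perm1 at 66.4 ± 37.1, Esrra at 32.7 ± 5.39 and Ppargc1a at 21.3 ± 12.1 CPM, and these neighbours overlapped within their SDs. In chronic Ctrl hearts, Perm1 (88.1 ± 23.2 CPM per kilobase, n = 5) and Esrra (46 ± 3.96) led, while Ppargc1a stood at 10 ± 2.5. The 2 tables were normalized separately, and levels set side by side across the studies carry no test.

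**Figure D1:**
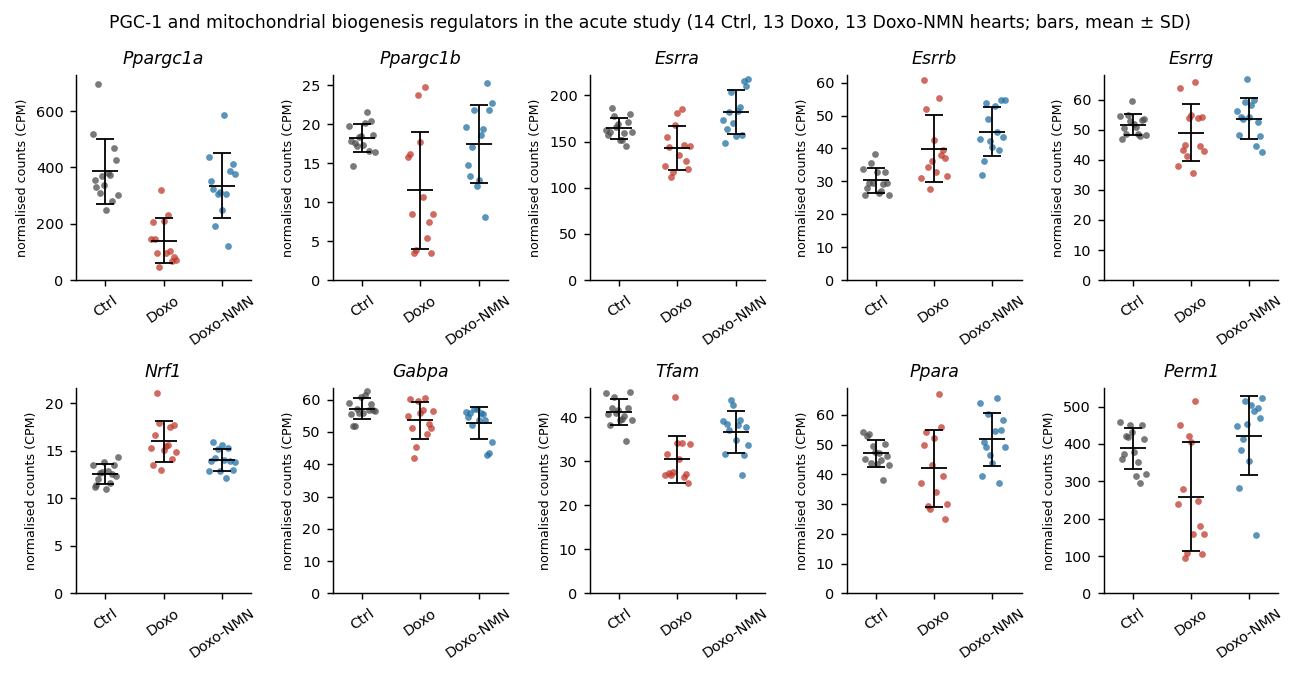
Level of each of the 10 genes in every acute heart (normalised counts in CPM on a linear axis from 0, 1 panel per gene, 1 point per heart, bars for mean ± SD) for 14 Ctrl, 13 Doxo and 13 Doxo-NMN hearts. In the Ppargc1a panel, 12 of 13 Doxo points lie below all Ctrl points, and the Doxo-NMN points spread from 121 to 585 CPM.

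Acute Doxo lowered the coactivators and Tfam and raised Nrf1 and Esrrb. The largest change among the 10 genes was that of Ppargc1a, whose log2 fold change was −1.46, and the next were those of Ppargc1b (−0.66) and Perm1 (−0.58). In Doxo vs. Ctrl hearts 7 of the 10 genes were called, 5 lower and 2 higher. Of all 14240 genes tested, 68.1% were called, 34.8% higher and 33.3% lower, so that a share of 7 in 10 was close to the background. With a fold change of at least 1.5 as a further condition, 2 of the 10 genes (Ppargc1a and Ppargc1b) and 30.1% of all genes were called. The median log2 fold change of the 10 genes was −0.18, and that of all genes was −0.00.

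Ppargc1a, the coactivator induced by cold, fasting and exercise, was at 251 CPM in the lowest, 363 in the median and 697 in the highest Ctrl heart (386 ± 115, SD, n = 14). In Doxo hearts it was at 47.5, 105 and 321 CPM (140 ± 79.8, n = 13). All but 1 Doxo heart lay below every Ctrl heart, the exception being Doxo replicate 6 at 321 CPM. The log2 fold change was −1.46 ± 0.227 (SE, 95% interval −1.92 to −1.0, adjusted p = 6.80e-07).

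Ppargc1b encodes PGC-1β, the close relative that also drives mitochondrial genes. Its level was 14.6, 18.1 and 21.5 CPM in the lowest, median and highest Ctrl heart and 3.43, 8.52 and 24.7 CPM in Doxo hearts. Of 13 Doxo hearts 8 lay below all Ctrl hearts and 2 above all of them, and the SD was 7.44 CPM against 1.83 CPM in Ctrl hearts. The log2 fold change was −0.66 ± 0.227 (adjusted p = 0.0105). Perm1, a muscle regulator induced by PGC-1 and the estrogen-related receptors, was at 296, 395 and 458 CPM in Ctrl and at 95.2, 239 and 515 CPM in Doxo hearts. Of its Doxo values 9 lay below the Ctrl range and 1 above it. The log2 fold change of Perm1 was −0.58 ± 0.203 (adjusted p = 0.0112). Among hearts with under 100 CPM of Myl4, the estimates were −0.65 for Ppargc1b and −0.71 for Perm1 and neither was called (adjusted p = 0.121 and 0.0606), whereas Ppargc1a was called at −1.48 in these hearts and at −1.50 in those with at least 100 CPM.

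Among the nuclear receptors the changes were small and not of 1 direction. Esrra (ERRα), which shares many targets with PGC-1α, was at 145, 162 and 186 CPM in Ctrl and at 112, 144 and 186 CPM in Doxo hearts, with 8 of 13 Doxo hearts below all Ctrl hearts. It fell by 0.20 ± 0.0702 on the log2 scale (adjusted p = 0.0131), a call that was lost in hearts with at least 100 CPM of Myl4 (−0.18, adjusted p = 0.0858). Esrrb (ERRβ) was at 25.8, 29.5 and 38.2 CPM in Ctrl and 27.8, 37 and 60.7 CPM in Doxo hearts. In all, 5 Doxo hearts exceeded every Ctrl heart, 4 Ctrl hearts lay below every Doxo heart, and the groups otherwise overlapped. On the log2 scale it rose by 0.40 ± 0.0991 (adjusted p = 5.77e-04), and 0.24 (adjusted p = 0.169) in hearts with under 100 CPM of Myl4. Esrrg (ERRγ), the receptor most tied to the oxidative metabolism of the postnatal heart, had a median of 51.5 CPM in Ctrl and 44.8 CPM in Doxo hearts. An estimate of −0.08 (95% interval −0.23 to 0.08, adjusted p = 0.370) was not called. Ppara, the fatty acid-sensing receptor, spread from 38.3 to 54.2 CPM in Ctrl and from 25.1 to 67.0 CPM in Doxo hearts, so that 6 Doxo hearts lay below and 3 above the Ctrl range. On the log2 scale the difference was −0.17 (−0.39 to 0.06, adjusted p = 0.190), and it was called without Doxo replicate 9 (−0.25, adjusted p = 0.0389) or when scaled to total counts (−0.26, adjusted p = 0.0364), a scaling that moved the median of all genes by −0.0910.

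Of the respiratory factors and Tfam, Nrf1 rose, Tfam fell and Gabpa was not called. Nrf1, which activates nuclear genes of the respiratory chain, was at 11, 12.6 and 14.4 CPM in Ctrl and 13, 15.5 and 21.1 CPM in Doxo hearts. Of 13 Doxo hearts 10 lay above all Ctrl hearts, and the log2 fold change was 0.35 ± 0.0590 (adjusted p = 2.67e-06). Tfam, which packages mitochondrial DNA and starts its transcription, was at 34.7, 40.9 and 45.6 CPM in Ctrl and 25.1, 27.6 and 44.6 CPM in Doxo hearts. As for Ppargc1a, 12 of 13 Doxo hearts lay below the Ctrl range. Tfam fell by 0.43 ± 0.0712 on the log2 scale (adjusted p = 2.03e-06). Gabpa, the DNA-binding subunit of nuclear respiratory factor 2, had medians of 56.7 CPM in Ctrl and 55.1 CPM in Doxo hearts and was not called (log2 fold change −0.09, −0.20 to 0.01, adjusted p = 0.101). Without Doxo replicate 2 or 9 Gabpa was called, at −0.12 in each case (adjusted p = 0.0487 and 0.0464), and likewise when scaled to total counts (−0.18, adjusted p = 0.0340).

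Summed cardiomyocyte markers had group medians of 66326 (Ctrl), 55350 (Doxo) and 72584 CPM (Doxo-NMN), with 8 of 8 markers counted and none at 0. These markers did not move together. From Ctrl to Doxo, the medians of Tnnt2 (8676 to 14260 CPM) and Pln (1149 to 1317) rose. Those of the other cardiomyocyte markers fell, with Myh6 going from 33760 to 19743 CPM. Summed atrial markers had medians of 4895, 1785 and 1147 CPM in these groups (8 of 8 counted, none at 0), red cell markers (5 of 5) ranged from 437 to 4311 CPM in Ctrl, 1.19 to 338 in Doxo and 0.209 to 2.81 in Doxo-NMN hearts, and neutrophil markers (4 of 4, 1 of them at 0 in every Ctrl heart) reached 3.88, 255 and 26.8 CPM. The part of these differences in the values of the 10 genes was not tested. Within the split by Myl4, Tfam fell by 0.46 on the log2 scale in hearts under 100 CPM and by 0.47 in the others, and Nrf1 was higher by 0.28 and 0.39, each still called.

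**Figure D2:**
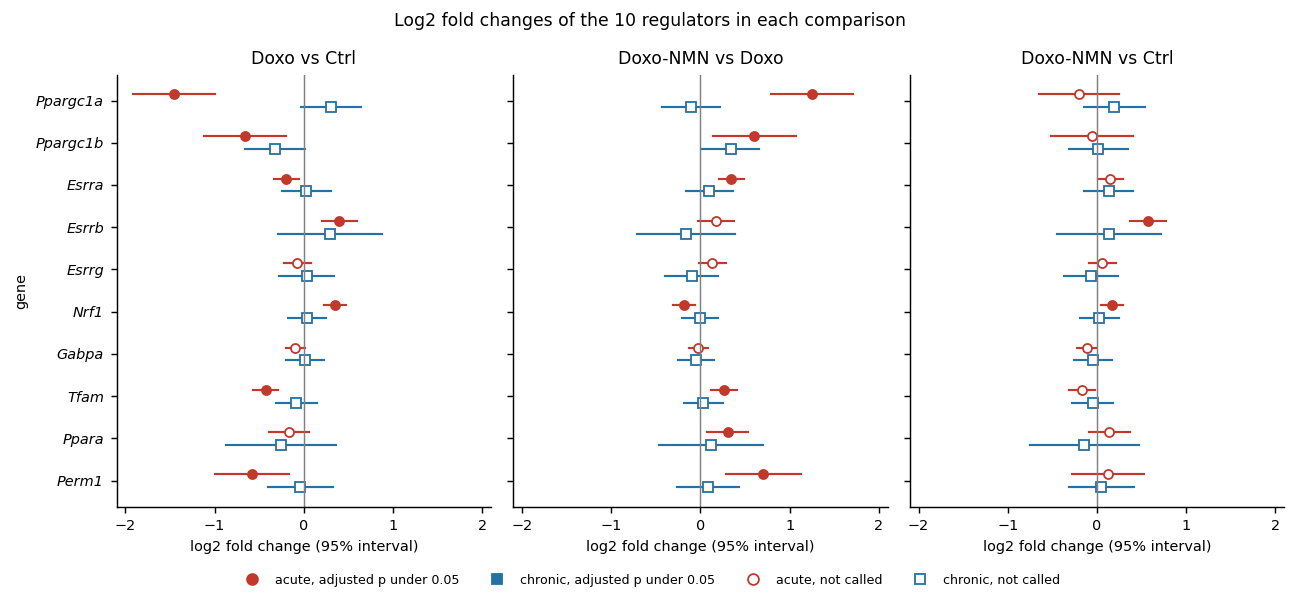
Log2 fold change with its 95% interval for each gene in the 3 comparisons (1 panel each), with acute estimates as circles, chronic estimates as squares, and filled symbols for an adjusted p under 0.05. The Ppargc1a circles sit at −1.46 and 1.25 in the first and second comparisons, and no square is filled.

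With NMN added to acute Doxo, 6 of the genes were higher than with Doxo alone and Nrf1 was lower. The highest estimates were those of Ppargc1a (log2 fold change 1.25), Perm1 (0.70) and Ppargc1b (0.60). These 3 coactivators were also those called with a fold change of at least 1.5. In all, 7 of 10 genes were called, against 53% of all genes tested (25.7% higher, 27.4% lower, and 17.1% with the fold condition). The median log2 fold change of the members was 0.28, and that of all genes −0.00. This comparison and the previous one share the 13 Doxo hearts, so their estimates are not independent of each other. Both compare mice alive at harvest, and the part of unequal survival in these differences was not tested.

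Ppargc1a was at 121, 322 and 585 CPM in the lowest, median and highest Doxo-NMN heart (335 ± 115, SD, n = 13). Of the 13 Doxo-NMN hearts 7 exceeded every Doxo heart, and 7 Doxo hearts lay below every Doxo-NMN heart. The lowest Doxo-NMN value, 121 CPM in replicate 10, lay within the Doxo range. The log2 fold change vs. Doxo was 1.25 ± 0.228 (95% interval 0.79 to 1.72, adjusted p = 3.09e-05). It was 1.30 in hearts under 100 CPM of Myl4 and 1.09 in those above.

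Perm1 had its lowest, median and highest Doxo-NMN level at 157, 453 and 523 CPM, with 1 heart above and none below the Doxo range of 95.2 to 515 CPM. Its log2 fold change was 0.70 ± 0.207 (adjusted p = 0.00438), and it was not called in hearts with at least 100 CPM of Myl4 (0.56, adjusted p = 0.0719). Ppargc1b was at 8.11, 18.6 and 25.3 CPM. The difference from Doxo was 0.60 ± 0.231 on the log2 scale (adjusted p = 0.0268), a call close to the threshold that was lost without Doxo replicate 10 (0.54, adjusted p = 0.0504) and when only the 2 groups compared were fitted (adjusted p = 0.0775). It was also lost in each Myl4 group of hearts (adjusted p = 0.112 and 0.238).

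With NMN, Esrra was at 149, 182 and 217 CPM, and 9 of 13 Doxo hearts lay below all of these values. The log2 fold change was 0.35 ± 0.0715 (adjusted p = 1.35e-04). Esrra was not called in the hearts with at least 100 CPM of Myl4 (0.21, adjusted p = 0.113). Ppara, at 37.1, 51 and 65.5 CPM, differed from Doxo by 0.30 ± 0.115 (adjusted p = 0.0243), a call lost with only the 2 groups fitted (adjusted p = 0.0628) and in each Myl4 group. Esrrb and Esrrg differed by 0.17 (95% interval −0.03 to 0.38) and 0.13 (−0.02 to 0.29) on the log2 scale and were not called (adjusted p = 0.142 and 0.139). Without Doxo replicate 2 both were called (0.25, adjusted p = 0.0297, and 0.18, adjusted p = 0.0481), and Esrrg also without Doxo replicate 9 (adjusted p = 0.0390). Scaled to total counts, both were called as well (0.25 and 0.22, adjusted p = 0.0295 and 0.0186).

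With NMN, Tfam was at 26.8, 37.8 and 43.8 CPM, higher than in Doxo hearts by 0.26 ± 0.0723 on the log2 scale (adjusted p = 0.00265). Below every Doxo-NMN heart lay 2 Doxo hearts and above every one lay 1, and the groups otherwise overlapped. The call was lost in hearts with under 100 CPM of Myl4 (0.22, adjusted p = 0.0929). Nrf1, at 12.2, 14 and 15.9 CPM, fell by 0.18 ± 0.0600 (adjusted p = 0.00966), with 4 Doxo-NMN hearts below the Doxo range. In hearts with at least 100 CPM of Myl4 the Nrf1 estimate was −0.10 and not called (adjusted p = 0.418). Scaled to total counts without TMM factors, where the median of all genes shifted by 0.0819, the Nrf1 estimate was −0.09 and no longer called (adjusted p = 0.273). Gabpa differed by −0.02 (adjusted p = 0.735).

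Against Ctrl, Doxo-NMN hearts were higher in Esrrb and Nrf1, and the other 8 genes were not called. The background in this comparison was 26% of all genes (15% higher, 11.1% lower), and 7.11% with the fold condition, which none of the 10 genes met. Of the 10 genes 5 had an unadjusted p under 0.05 in edgeR's test. The largest of these, that of Esrra (p = 0.0379), ranked 4998 of 14240 genes, so that such values were common among all genes. Esrrb was at 31.8, 43.3 and 54.7 CPM in Doxo-NMN hearts, and 11 of 13 lay above every Ctrl heart. Esrrb was higher by 0.57 ± 0.0991 on the log2 scale (adjusted p = 5.91e-05), and it was called in hearts under and above 100 CPM of Myl4 (0.49 and 0.52). The next highest number of Doxo-NMN hearts beyond the Ctrl range in 1 direction was 6, for Ppara and Perm1. Nrf1 was higher by 0.17 ± 0.0590 (adjusted p = 0.0334), with 4 Doxo-NMN hearts above all Ctrl hearts, and its call was lost in 9 of 40 fits that each left out 1 heart (Ctrl replicates 2, 3, 4, 8 and 10 and Doxo-NMN replicates 3, 5, 7 and 10, adjusted p from 0.0515 to 0.0587) and in hearts with under 100 CPM of Myl4 (0.06, adjusted p = 0.714). The difference in Ppargc1a was −0.20 with a 95% interval of −0.65 to 0.24 (adjusted p = 0.523), that in Ppargc1b −0.06 (−0.51 to 0.40) and that in Perm1 0.12 (−0.29 to 0.53). These intervals leave room for differences of either sign. For Tfam the estimate was −0.17 (−0.31 to −0.02, adjusted p = 0.0747), and it was called without Doxo-NMN replicate 5 or 6 or without Doxo replicate 6 (adjusted p = 0.0443, 0.0491 and 0.0343). Fitted with the replicate number as a block, the Tfam estimate was −0.18 and called (adjusted p = 0.0456), and with only the 2 groups compared it was −0.17 (adjusted p = 0.0189). Esrra was called with limma voom (0.15, adjusted p = 0.0131) and with only the 2 groups compared (0.15, adjusted p = 0.0412). Gabpa was called lower with only the 2 groups compared (−0.12, adjusted p = 0.0326), and Ppara higher with limma voom (0.19, adjusted p = 0.04996). In the main fit the 95% intervals were 0.01 to 0.29 for Esrra, −0.22 to −0.01 for Gabpa and −0.09 to 0.37 for Ppara.

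**Figure D3:**
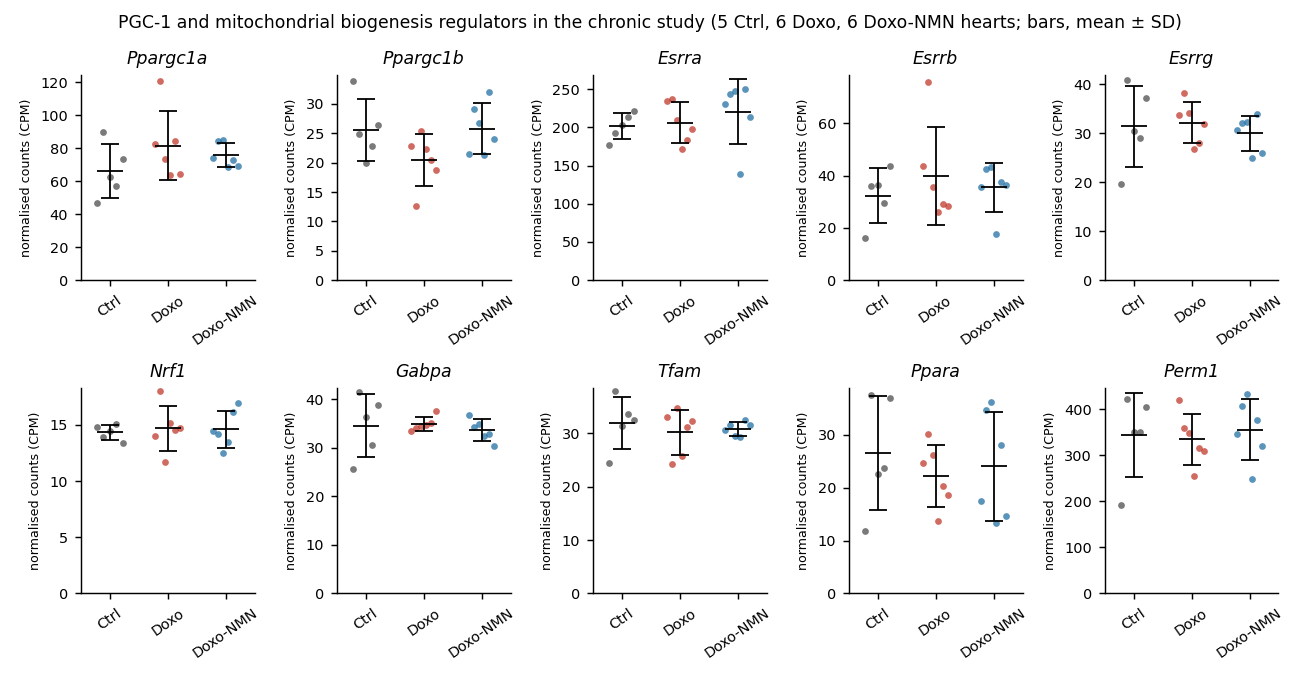
Level of each of the 10 genes in every chronic heart (normalised counts in CPM on a linear axis from 0, 1 panel per gene, 1 point per heart, bars for mean ± SD) for 5 Ctrl, 6 Doxo and 6 Doxo-NMN hearts. The 3 groups overlap in every panel, and in the Ppargc1a panel a single Doxo heart stands at 121 CPM.

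In the chronic study, groups overlapped for each of the 10 genes in every comparison, as they also did in the acute study. The share of all genes with groups apart was not determined. None of the 10 genes was called in the chronic study. In Doxo vs. Ctrl, 0.0602% of 14960 genes were called, in Doxo-NMN vs. Doxo 0% and in Doxo-NMN vs. Ctrl 0.0401%. Of the 10 genes, 0, 1 and 0 had an unadjusted p under 0.05 in edgeR's test. The 1 was Ppargc1b in Doxo-NMN vs. Doxo, which ranked 308 of 14960 genes by p. DESeq2 and limma voom also called 0 in each comparison. The median log2 fold changes of the members were 0.02, 0.01 and 0.02, and those of all genes lay between −0.00 and 0.01.

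Ppargc1a in the 5 chronic Ctrl hearts was at 46.9, 90.1, 62.5, 57.3 and 73.7 CPM. In chronic Doxo hearts it was at 63.9, 78.1 and 121 CPM in the lowest, median and highest heart (81.6 ± 21.1, SD, n = 6), and in Doxo-NMN hearts at 68.4, 73.3 and 84.9 CPM. A single Doxo heart, 1 of 6, exceeded all Ctrl hearts and 3 Ctrl hearts lay below all Doxo hearts. The log2 fold change in Doxo vs. Ctrl was 0.30 with a 95% interval of −0.04 to 0.64 (adjusted p = 0.667), so that a fall of the acute size lay outside the interval. In Doxo-NMN vs. Doxo it was −0.11 (−0.43 to 0.21).

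Ppargc1b was at 33.9, 24.8, 19.9, 22.8 and 26.4 CPM in the chronic Ctrl hearts. Its chronic Doxo levels were 12.6, 21.4 and 25.3 CPM and its Doxo-NMN levels 21.3, 25.4 and 32 CPM. In this pair of groups 3 Doxo-NMN hearts lay above all Doxo hearts and 3 Doxo hearts below all Doxo-NMN hearts, the difference with the only unadjusted p under 0.05 (log2 fold change 0.34 ± 0.153, p = 0.0381 in edgeR's test, adjusted p = 0.999). In Doxo vs. Ctrl the estimate was −0.33 (−0.66 to 0.01, adjusted p = 0.646).

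Perm1 was at 192, 421, 349.9, 350.4 and 404 CPM in the chronic Ctrl hearts, at 254 to 419 CPM in Doxo and 249 to 434 CPM in Doxo-NMN hearts. The lowest value, in Ctrl replicate 1, was also the lowest of its group for Ppargc1a, Esrra, Esrrb, Esrrg, Gabpa, Tfam and Ppara. Esrra, the second highest per kilobase, ran from 177 to 222 CPM in Ctrl, 172 to 238 in Doxo and 139 to 249.6 in Doxo-NMN hearts. The widest intervals were those of Esrrb in Doxo vs. Ctrl (0.29, −0.29 to 0.87) and of Ppara (−0.26, −0.87 to 0.36). The narrowest were those of Gabpa (0.01, −0.20 to 0.23), Nrf1 (0.03, −0.18 to 0.25) and Tfam (−0.08, −0.31 to 0.14). For Tfam, the acute estimate of −0.43 lay outside the chronic interval. Skeletal muscle markers, of which 6 of 6 were counted and none was at 0, summed to 557 to 2081 CPM in chronic Ctrl, 409 to 829 in Doxo and 381 to 629 in Doxo-NMN hearts, and their part in these values was not tested.

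The difference between the acute and chronic effects was tested directly in 1 fit of all 57 hearts. The Doxo effect on Ppargc1a was lower in the acute than in the chronic study (difference −1.76 ± 0.383, 95% interval −2.53 to −0.99, adjusted p = 0.00152). The Doxo effect on Nrf1 was higher by 0.31 ± 0.111 (adjusted p = 0.0350). Of all 15152 genes tested, 23.6% were called, against 2 of the 10 members. The Nrf1 call was lost in 6 of 18 fits that each left out 1 heart (chronic Ctrl replicates 1, 3 and 4 and chronic Doxo replicates 1, 3 and 5, adjusted p from 0.0525 to 0.0920) and with scaling to total counts (0.21, adjusted p = 0.209). For Tfam the difference was −0.35 ± 0.139 (adjusted p = 0.0606), and it was called without acute Doxo replicate 6 (−0.41, adjusted p = 0.0122) or without chronic Ctrl replicate 2, Doxo replicate 2 or Doxo replicate 4 (adjusted p = 0.0334, 0.0257 and 0.0492). For Perm1 (−0.54, −1.24 to 0.16) and Ppargc1b (−0.33, −1.09 to 0.44) it was not called. With limma voom 6 of the 10 were called, the further 4 being Tfam (−0.43), Ppargc1b (−0.80), Esrrb (0.61) and Perm1 (−0.55). The share of all genes called with limma voom is not given here.

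For the effect of NMN on Doxo-treated hearts, the acute and chronic studies differed in Ppargc1a alone among the 10 genes (difference 1.37 ± 0.367, 95% interval 0.63 to 2.1, adjusted p = 0.0234), with 6.09% of all genes called. The next estimates were those of Perm1 (0.62, −0.06 to 1.30, adjusted p = 0.233) and Esrrb (0.34, −0.15 to 0.83, adjusted p = 0.378). With limma voom Tfam (0.42) and Perm1 (0.73) were called as well. The NMN dose and route differed between the studies.

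Levels of Ppargc1a varied with those of other members among the acute hearts, in 7 of 9 relations within the Doxo group, 1 of 9 within Ctrl and 2 of 9 within Doxo-NMN. Over the 40 acute hearts, after subtraction of group means of log2 CPM, Ppargc1a was correlated with 8 of the 9 other genes at a Benjamini-Hochberg adjusted p under 0.05 over these 9 relations (two-sided permutation test within groups, 100000 resamples, smallest p 1e-05). In each heart all genes share 1 library, with its depth and scaling. In all, 18 relations were computed, 9 in each study. How many of all tested genes would pass with Ppargc1a was not determined, so these counts have no background share beside them. In the acute hearts, genes outside the list, such as Anks1 (r = 0.87) and Fndc5 (0.82), varied more closely with Ppargc1a than any member. The closest member was Perm1 (Pearson r = 0.80, permutation p = 1e-05, adjusted 4.5e-05, Spearman rho = 0.75, permutation p = 2e-05). Ppargc1b followed (r = 0.74, permutation p = 1e-05, adjusted 4.5e-05, rho = 0.70, permutation p = 2e-05). For Ppara r was 0.66 (permutation p = 0.00013, adjusted 0.000292, rho = 0.68), for Esrra 0.64 (permutation p = 0.0001, adjusted 0.000292, rho = 0.60) and for Tfam 0.58 (permutation p = 0.00082, adjusted 0.00148, rho = 0.47). Esrrg (r = 0.42), Esrrb (0.40) and Nrf1 (−0.37, the only negative value) were near the threshold, with adjusted permutation p-values of 0.0386, 0.0386 and 0.0492, and rho of 0.35, 0.35 and −0.32 did not pass (adjusted permutation p = 0.0656, 0.0593 and 0.0656). Gabpa was not correlated at this threshold (r = 0.27, permutation p = 0.147).

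**Figure D4:**
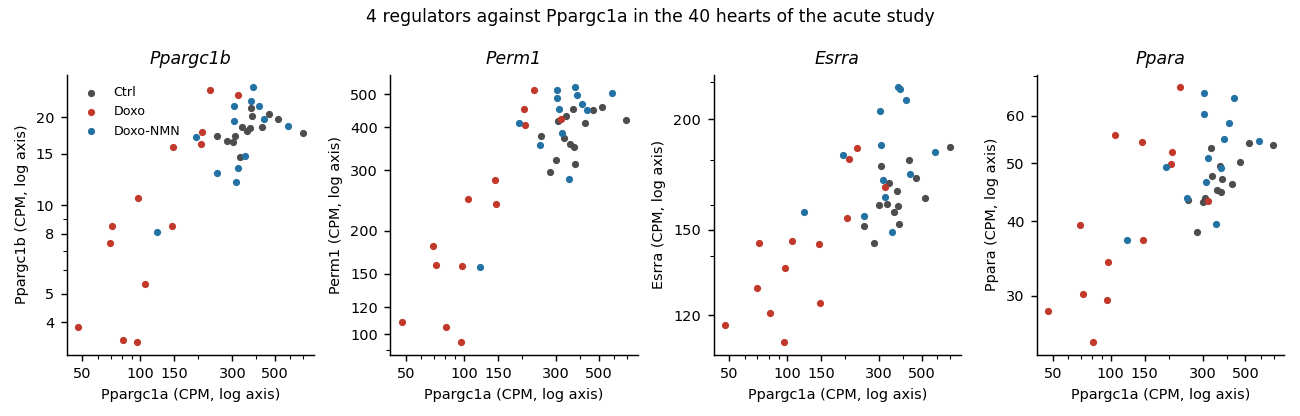
Level of Ppargc1a (horizontal, CPM on a log axis) against that of Ppargc1b, Perm1, Esrra and Ppara (vertical, CPM on log axes) in 40 acute hearts, 1 point per heart, coloured by group and not centred on group means. Doxo hearts with the lowest Ppargc1a, down to 47.5 CPM, also lie low in each panel, and r after group centring was 0.80 for Perm1.

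Without the 2 acute hearts farthest from the median of Ppargc1a (Doxo replicates 5 and 11, at 47.5 and 69.5 CPM), r was 0.77 for Perm1, 0.70 for Ppargc1b, 0.64 for Ppara, 0.59 for Esrra and 0.56 for Tfam, and 6 relations passed, those with Esrrb (0.33) and Esrrg (0.36) no longer. Within the Doxo group r was 0.88 for Perm1 (permutation p = 0.00016, adjusted 0.00144), 0.83 for Ppargc1b and 0.77 for Esrra over 13 hearts. Within Ctrl, r was 0.51 for Perm1, 0.41 for Ppargc1b and 0.74 for Ppara (the last with adjusted permutation p = 0.0217), and within Doxo-NMN 0.74, 0.69 and 0.57. By Spearman's rho 4 relations passed within Doxo, 3 within Ctrl and 0 within Doxo-NMN (lowest adjusted permutation p = 0.34), and the difference between the groups was not tested. In the 23 hearts with under 100 CPM of Myl4, 7 relations passed, with r = 0.86 for Perm1. In the 17 hearts with at least 100 CPM, 0 passed (r = 0.59 for Perm1, permutation p = 0.0512, adjusted 0.178), 1 having an unadjusted permutation p under 0.05.

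In the 17 chronic hearts Ppargc1a was correlated with 5 of the 9 genes, a count again without a share of all genes beside it. The strongest relations were with Esrrb (r = 0.80, permutation p = 0.00021, adjusted 0.000945, rho = 0.84), Esrrg (r = 0.79, permutation p = 0.00064, adjusted 0.00192, rho = 0.81) and Ppara (r = 0.77, permutation p = 0.0001, adjusted 0.0009, rho = 0.80). Perm1 (r = 0.71, permutation p = 0.00268, adjusted 0.00603, rho = 0.80) and Esrra (r = 0.44, permutation p = 0.0252, adjusted 0.0454, rho = 0.58) also passed. Ppargc1b had r = −0.43 here (permutation p = 0.134, adjusted 0.173), and the difference between the studies was not tested. Without Doxo replicate 2 and Ctrl replicate 1 (121 and 46.9 CPM of Ppargc1a), Ppara (r = 0.72) and Perm1 (0.70) still passed, while Esrrb (0.52), Esrrg (0.68) and Esrra (0.28) did not pass. The adjusted permutation p was then 0.22 for Esrra, whereas Esrrb and Esrrg missed the threshold closely (adjusted permutation p = 0.0535 for each). The change in r was not tested. The r of Ppargc1b was then 0.41.

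The genes whose variation was most like that of 3 members were ranked by Pearson r of group-centred log2 CPM over the 40 acute hearts, among 14230 other genes, as a description. For Ppargc1a these were Anks1 (r = 0.87), Fndc5 (0.82), the precursor of irisin, Asb2 (0.81), Inip (0.81) and Vps18 (0.80). In the 17 chronic hearts the same pairs had r = 0.08, −0.31, 0.38, −0.52 and 0.56. For Esrra they were Tomm40 (r = 0.93), the import channel of the mitochondrial outer membrane, Cluh (0.91), which binds mRNAs of mitochondrial proteins, Rbm38 (0.89), Smpd1 (0.89) and Endog (0.87), and in chronic hearts r was 0.59, 0.91, 0.88, 0.79 and 0.84. For Perm1 they were Ank1 (r = 0.96), Asb2 (0.94), Cdk16 (0.94), Rbm38 (0.93) and Tuba4a (0.92), with 0.64, 0.84, 0.96, 0.80 and 0.57 in chronic hearts. All 10 of the pairs of Esrra and Perm1 kept a positive r in the chronic hearts, whereas 2 of 5 of Ppargc1a were negative.

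The wider pathway was described with 4 lists of genes, which were not chosen independently of earlier results on these hearts. Of 42 partners and coregulators of PGC-1, 15 were higher and 9 lower in acute Doxo vs. Ctrl (median log2 fold change 0.08, all genes −0.00), and 10 were higher and 12 lower in Doxo-NMN vs. Doxo (−0.01). These are 57.1% and 52.4% of the list, against 68.1% and 53% of all genes called. Crtc2, a CREB coactivator upstream of Ppargc1a, rose with Doxo by 0.90 ± 0.0933 on the log2 scale (16 ± 1.16 CPM in Ctrl and 29.9 ± 7.07 in Doxo hearts, adjusted p = 3.61e-10) and was lower with NMN (−0.62, adjusted p = 3.18e-06). Sirt1, the NAD+-dependent deacetylase that acts on PGC-1α, rose by 0.97 ± 0.126 (17.5 ± 1.36 against 34.4 ± 13.3 CPM, adjusted p = 2.75e-08) and was lower with NMN (−0.78, adjusted p = 8.64e-06). Lpin1, which can act as a partner of PGC-1α, fell by 0.83 ± 0.108 (283 ± 17.5 against 159 ± 50.2 CPM, adjusted p = 2.44e-08) and was higher with NMN (0.55, adjusted p = 9.23e-05). The corepressor Nrip1 rose by 0.46 (adjusted p = 4.79e-05) and was lower with NMN (−0.59, adjusted p = 6.78e-06).

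Of 27 tested genes of mitochondrial DNA transcription and maintenance, the processes in which Tfam acts, 4 were higher and 17 lower with Doxo (median −0.28), and 14 were higher and 3 lower with NMN (0.25), while the medians of all genes were −0.00. Of the 27 genes 77.8% and 63% were called, against 68.1% and 53% of all genes, of which 34.8% were higher and 33.3% lower with Doxo, and 25.7% higher and 27.4% lower with NMN. Mgme1, an exonuclease of mitochondrial DNA, fell by 0.63 ± 0.0704 (18.6 ± 1.22 against 12 ± 2.36 CPM, adjusted p = 1.53e-09) and was higher with NMN (0.43, adjusted p = 9.16e-06). Tfb1m, a mitochondrial ribosomal RNA methyltransferase, fell by 0.78 ± 0.114 (adjusted p = 2.10e-07) and was higher with NMN (0.66, adjusted p = 2.02e-05). Polg, which copies mitochondrial DNA, was at 61.0 ± 3.18 CPM in Ctrl, 50 ± 6.86 in Doxo and 64.9 ± 8.47 in Doxo-NMN hearts (Doxo-NMN vs. Doxo 0.38, adjusted p = 1.11e-05, and 0.0633 in hearts with at least 100 CPM of Myl4). Against this direction, the mitochondrial thymidine kinase Tk2 rose with Doxo (0.65 ± 0.102, adjusted p = 8.50e-07) and was lower with NMN (−0.40, adjusted p = 0.00153, and 0.0749 in hearts with under 100 CPM of Myl4).

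Of 42 targets of the estrogen-related receptors and PGC-1 in energy metabolism, 7 were higher and 13 lower with Doxo (median −0.04), and 9 were higher and 4 lower with NMN (0.04). The shares called, 47.6% and 31%, were below the 68.1% and 53% of all genes. Ndufv1, a subunit of complex I, rose by 0.40 (661 ± 59.7 against 873 ± 147 CPM, adjusted p = 1.21e-05), whereas Dlst (−0.48, adjusted p = 2.35e-05) and Cs (−0.43, adjusted p = 4.50e-05), both of the citric acid cycle, fell. Dlst was higher with NMN (0.39, adjusted p = 8.34e-04), and Acadl, of fatty acid oxidation, was lower (−0.33, adjusted p = 0.00262, and 0.0987 in hearts with at least 100 CPM of Myl4). Targets thus moved in both directions.

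Of 19 tested PPARα targets, 6 were higher and 3 lower with Doxo (median 0.01), and 1 was higher and 6 lower with NMN (−0.18), that is 47.4% and 36.8% of the list against 68.1% and 53% of all genes. Lpl, which frees fatty acids for uptake, rose by 1.22 (5824 ± 940 against 13589 ± 3925 CPM, adjusted p = 1.63e-10) and was lower with NMN (−0.73, adjusted p = 1.17e-05). Ppara itself was not called in Doxo vs. Ctrl and was higher with NMN.

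**Figure D5:**
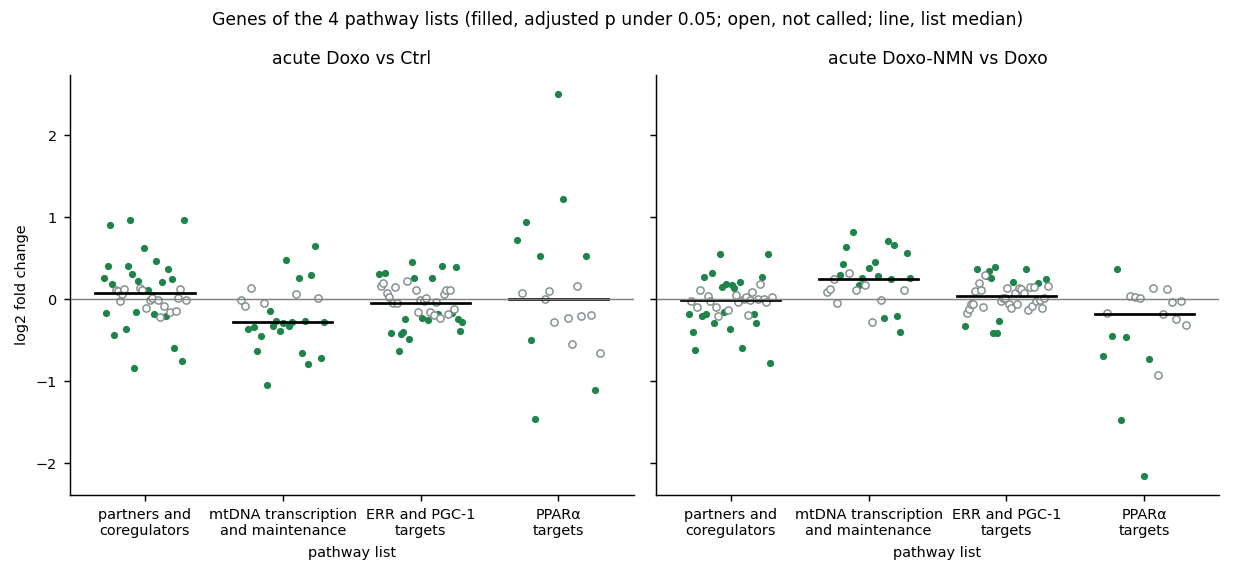
Log2 fold change of each gene of the 4 pathway lists in acute Doxo vs. Ctrl and acute Doxo-NMN vs. Doxo, 1 point per gene (filled, adjusted p under 0.05; open, not called), with a line at each list median. The median of the mitochondrial DNA list lies at −0.28 in the first panel and 0.25 in the second.

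In Doxo-NMN vs. Ctrl, 8 partners were higher and 5 lower, 0 and 2 of the mitochondrial DNA genes, 5 and 1 of the energy metabolism targets and 3 and 2 of the PPARα targets, which are 31%, 7.41%, 14.3% and 26.3% of the lists against 26% of all genes. In the chronic study 0 of 129 tested genes of these lists were called by edgeR's test in each comparison, 9, 0 and 3 of them had an unadjusted p under 0.05 in the 3 comparisons in the order above, and DESeq2 and limma voom also called 0. Slirp and Fgf21 had too few counts for a test in either study, and Vnn1 in the chronic study. The acute and chronic effects of Doxo differed for 7 partners (4 higher and 3 lower in the acute study), 5 mitochondrial DNA genes (1 and 4), 1 energy metabolism target and 4 PPARα targets, all 4 higher, and those of NMN for 2 partners, 3 mitochondrial DNA genes and 2 PPARα targets. For Doxo these are 16.7%, 18.5%, 2.38% and 21.1% of the lists in that order, each below the 23.6% of all genes called, and for NMN 4.76%, 11.1%, 0% and 10.5% against 6.09%. Crtc2 (difference 0.83, adjusted p = 6.12e-04), Sirt1 (0.74, adjusted p = 0.0143), Lpin1 (−0.58, adjusted p = 0.0339), Mgme1 (−0.61, adjusted p = 0.00451) and Tfb1m (−0.66, adjusted p = 0.0217) were among those that differed for Doxo.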

How the data were processed

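Gene counts of 40 acute and 17 chronic hearts were analysed as deposited. The authors made these raw counts with STAR (version 2.7.3a) and featureCounts (version 2.0.0) on mm10, per the submitters' processing notes. The annotation release and strand setting are not given in the sources used here. Of counts from 1 to 20, 73.7% were even in the acute and 40.3% in the chronic table, and acute counts divided by 2 were therefore tried as an alternative. The acute counts cover 25416 genes and the chronic counts 54658. Total counts are given with the results and set the precision, and floors of 3 counts cover counting error only.

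Each study was fitted with its 3 groups in edgeR 4.0.16 (R 4.3.3): filterByExpr by group, TMM, quasi-likelihood F-test, Benjamini-Hochberg adjustment over all tested genes, calls at an adjusted p under 0.05, in the acute study also with a fold of at least 1.5. The difference between studies was an interaction contrast over 57 hearts. The procedure was run on simulated data with planted changes and the same dispersion in every group. That setting does not cover the unequal spread of the acute groups, and the outcome is not reported here. Log2 CPM used a prior count of 2. Correlations used permutation tests with 100000 resamples within groups (numpy 2.4.6, scipy 1.17.1, pandas 2.3.3, matplotlib 3.10.9, Python 3.11.15). Gene positions and exon lengths came from GENCODE M21, promoters from RefSeq.

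The 10 genes and the pathway lists were chosen with earlier results of these data known. All 10 are named. From each list, the 3 ranking first by adjusted p in acute Doxo vs. Ctrl, the 2 ranking first in acute Doxo-NMN vs. Doxo and any called in a chronic comparison are named, and for Ppargc1a, Esrra and Perm1 the 5 genes most like them. Some genes that this rule names are not reported here. Alternatives were RLE factors, other filters, limma 3.58.1 voom, DESeq2 1.42.0, robust dispersion, a replicate block, only the groups compared, hearts split at 100 CPM of Myl4 and each heart left out (for the differences between studies, the 17 chronic hearts and acute Doxo replicate 6); scaling to total counts was added after the data were examined. Replicate numbers were not taken as pairs in the main fits. Deviations of same-numbered hearts correlated at a median of 0.0605 over 39 acute pairs (18 over 0.1) and 0.0223 over 16 chronic pairs (4 over 0.1). The medians of differently numbered pairs from different groups were −0.0334 (494 acute pairs) and −0.0137 (80 chronic pairs), and the difference was not tested.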

Additional observations from a re-analysis of the deposited data

Results flagged for a closer look

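In 4 of 30 tests of a group's highest and lowest heart, a value stood farther from its neighbours than a Dixon test at 95% allows, where chance gives about 1 in 20 groups. In the chronic study, Doxo replicate 2 was the highest of its group for Ppargc1a (121 CPM) and Esrrb (75.7 CPM), and Doxo-NMN replicate 4 was the lowest of its group for Esrra (139 CPM) and Esrrb (17.7 CPM). Only groups of 4 to 10 hearts, and thus the chronic groups, were tested this way.

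Effects differed between the studies for 2 genes by the test of the difference itself. The log2 effect of Doxo on Ppargc1a was lower in the acute study by a difference of −1.76, that on Nrf1 was higher by 0.31, and the log2 effect of NMN on Ppargc1a was higher by 1.37. Schedule, route, age, supplier and sequencing site differed as well and cannot be told apart from the regimen.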

How the results depend on the processing

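No called log2 fold change of the 10 genes changed sign under the alternatives run: of 2850 values, 2772 kept their side of the threshold, 47 lost the call and 31 gained it. In acute Doxo vs. Ctrl, 7 genes were called, 4 in hearts with under 100 CPM of Myl4 and 2 with the fold condition. In acute Doxo-NMN vs. Doxo, 7 were called, 4 and 2 in hearts under and above 100 CPM of Myl4 and 3 with the fold condition. In acute Doxo-NMN vs. Ctrl, 2 were called, 1 with total counts, 1 with no filter, 4 with limma voom, 5 with only the groups compared, 1 under 100 CPM of Myl4 and 0 with the fold condition. For the difference in the Doxo effect, 2 were called, 1 with no filter and 6 with limma voom, and for that in the NMN effect 1 and, with limma voom, 3. The causes were not tested. The share of all genes called under each alternative is not given here, so these counts, and those that follow, describe the members without a background. Leaving out 1 heart gave 7 to 9, 6 to 9 and 1 to 3 calls in the acute comparisons, 0 to 0 in each chronic one, and 1 to 3 and 1 to 1 for the differences, for which 18 of the 57 hearts were left out in turn. With the replicate block, 7, 7 and 3 genes were called in the acute comparisons, 0 in each chronic one and 2 and 1 for the differences, and Tfam in acute Doxo-NMN vs. Ctrl (−0.18, adjusted p = 0.0456) was the only call it changed.

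Of the correlations with Ppargc1a, 8 passed in acute hearts and 0 in those with at least 100 CPM of Myl4, where Esrrb (−0.17) and Esrrg (−0.11) had the opposite sign, and 5 passed in chronic hearts and 2 without Doxo replicate 2 and Ctrl replicate 1. With acute counts divided by 2, as many of the 10 genes were called in each comparison as without. The chronic groups held 5 or 6 hearts, against 13 or 14 in the acute study, which limits what those comparisons could detect.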
